A study of Mus musculus with 2 samples.

Results

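DNase I hypersensitivity was examined at 46 mouse genes that encode receptors for neuromodulators, out of 21755 protein-coding genes outside the Y chromosome. The genes were chosen by name, by receptor family: 11 serotonin, 5 dopamine, 5 muscarinic, 6 nicotinic, 8 adrenergic, 3 adenosine, 1 cannabinoid, 4 opioid and 3 histamine receptor genes. The genes were classed from general knowledge of where each receptor is found, but with earlier results of these data known. By this, 12 were classed as known in hippocampus. Another 16 were classed as known mainly elsewhere, for example in striatum, habenula, autonomic ganglia or outside the brain. The other 18, known in both or of unsure place, form a mixed class. The tissue was hippocampus (labelled as a layer of it) from B6CASTF1/J mice, a first-generation cross of the C57BL/6J and CAST/EiJ strains, 25 days old and labelled male. It gave 2 libraries of a single group, replicates 1 and 2, so there was no condition to compare. Both samples carry the same donor entry, so they may be tissue of 1 animal or of several, and their spread may be technical. Pairs of values below stand in the order replicate 1, replicate 2.

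Neuromodulator receptors set how excitable neurons are and how synapses change with use. Most are G protein-coupled: those that couple to Gs raise cyclic AMP, those that couple to Gi/o lower it and open potassium channels, and those that couple to Gq/11 activate phospholipase C. Nicotinic receptors are instead cation channels gated by acetylcholine. DNase I cuts DNA that is not wrapped tightly in nucleosomes, so that peaks of cuts mark open promoters and enhancers, and a footprint is a short protected stretch inside open DNA, as a bound protein can leave.

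Replicate 1 held 93545 peaks and replicate 2 held 79144, with 223251 and 170016 footprints and 34.8 and 27.7 megabases at a false discovery rate (FDR) under 0.05. The number of cuts per library is unknown, and the median peak value, the authors' signal, was 0.657 and 0.651. Replicate 2 gave mixed signs of its labelled sex. At the start of Xist, the RNA that silences 1 X chromosome in females, it had 3 peaks with a highest value of 1.01. Replicate 1 had none there, while 40 and 39 peaks lay on the Y chromosome. Of 12 markers of hippocampal excitatory neurons 11 had a promoter peak in both libraries, Neurod2 lacking one in replicate 2, and their summed promoter value was 19.5 and 14.8. The same count was 5 of 10 for interneurons (Lhx6, Sst and Vip without a peak), 5 of 8 for astrocytes and 3 of 8 for the oligodendrocyte lineage. It was 1 of 8 for microglia and 1 of 7 for endothelial and mural cells. Among markers of other regions, 6 of 8 for striatal projection neurons and 4 of 10 for habenula, thalamus and midbrain had one. Over all protein-coding genes the share was 63.2%, so counts near it say little about a cell type. In bulk tissue, fewer cells of a type and less openness per cell cannot be told apart.

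A promoter peak was called when a peak of the longer deposited list reached within 1 kb of any annotated transcription start site (TSS) of the gene, upstream or downstream. All 12 receptor genes known in hippocampus had a promoter peak in both libraries. So did 16 of 18 of the mixed class and 11 of 16 known elsewhere, 39 of 46 in all, against 63.2% of all protein-coding genes. Drd3, Drd4, Chrm5 and Chrnb4 had none in either library, and all 4 were classed as known elsewhere. Chrm4, Chrna3 and Hrh1 had one in the library labelled male replicate 2 but lacked it in replicate 1. The shorter, stricter peak list left 9 of 12, 11 of 18 and 4 of 16, or 24 of 46 (52.2%), close to the 57.7% of all genes. The 4 known elsewhere that stayed were Drd1, Adra1b, Adra2b and Adora2b.

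Receptor promoters were open in most cases but with low peaks. The promoter value of a gene, its strongest promoter peak with 0 for none, had a median of 0.827 and 0.748 over the receptors and of 1.31 and 1.16 over all genes. The class medians were 1.37 and 1.25 for genes known in hippocampus, 0.798 and 0.835 for the mixed class and 0.481 and 0.458 for genes known elsewhere. Each class kept its place in both libraries, and single genes of the classes overlapped widely. Mean values ran from 0.609 to 2.09 in the hippocampal class and from 0 to 2.08 in the class known elsewhere. Where a peak stood in both libraries, the median of the mean value was 0.912 for receptors and 2.18 for all genes, and 39 of 39 receptors lay below 2.18. Of these 39 values, 34 differed by less than 1.5-fold between libraries. The exceptions were Htr1f at 1.94-fold, Htr4 at 1.86-fold, Adra2a at 1.62-fold, Chrna7 at 1.55-fold and Adra1a at 1.53-fold, and 24 of 39 were higher in replicate 1. Close values need not come from the same site. At Htr1d, Drd2, Drd5, Chrna5, Adra1a and Oprd1 the strongest peaks of the libraries did not overlap each other.

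**Figure D1:**
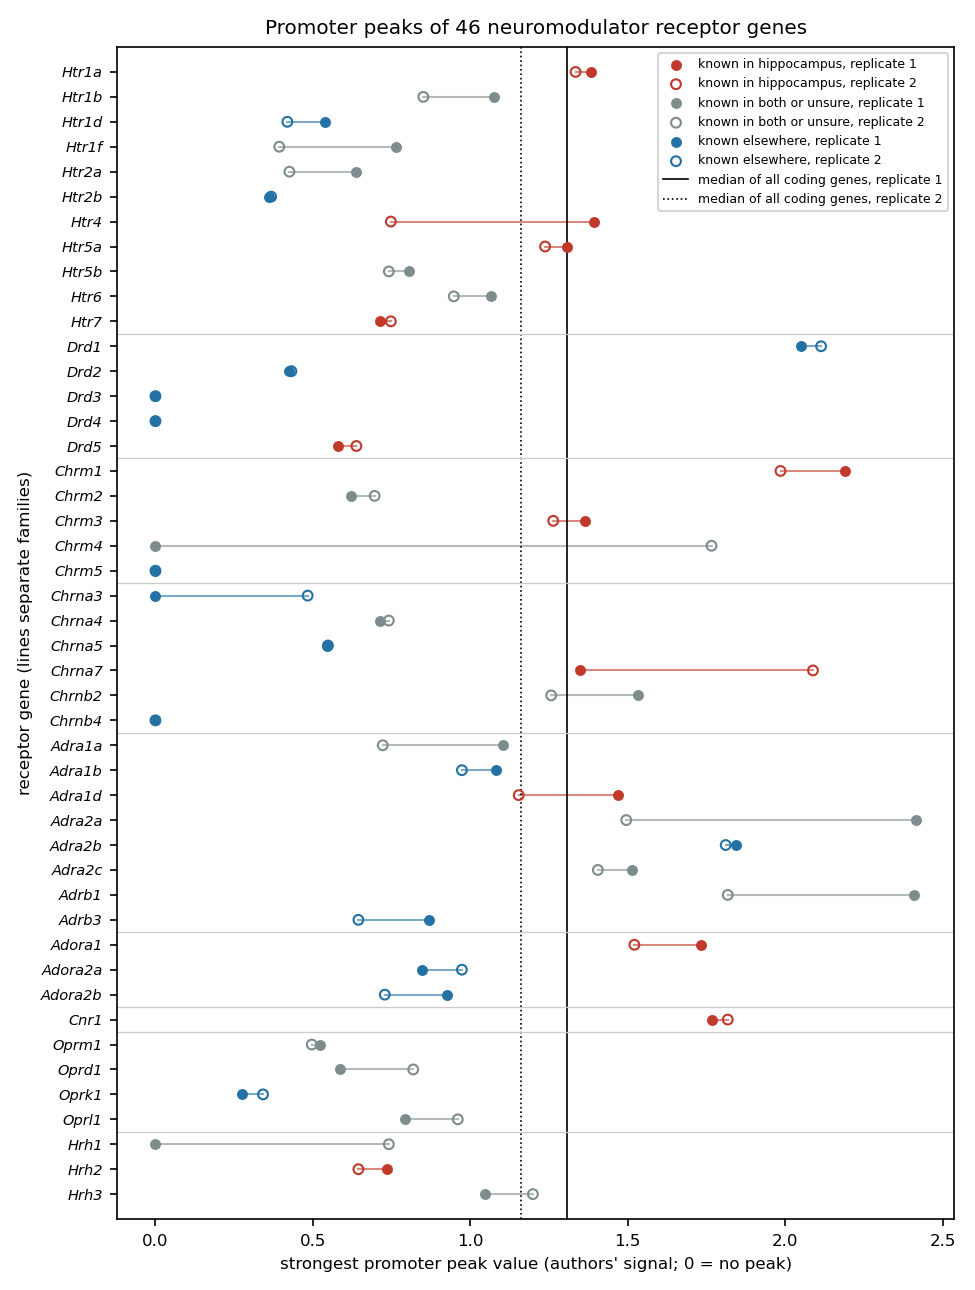
Strongest promoter peak of each of the 46 receptor genes (x axis, the authors' signal, 0 for no peak), filled circles for replicate 1 and open circles for replicate 2, coloured by known site, with the medians of all protein-coding genes (1.31 and 1.16) as vertical lines. The medians are 1.37 and 1.25 for genes known in hippocampus and 0.481 and 0.458 for genes known elsewhere, and single genes of the classes overlap.

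Serotonin receptors had a promoter peak in both libraries at 11 of 11 genes, against 63.2% of all protein-coding genes. Htr1a, the Gi/o-coupled receptor of pyramidal neurons and raphe, had the highest mean of the family with 1.38 and 1.33. Its strongest peak covered chr13:105443881-105445280 in replicate 1 and chr13:105444581-105444920 in replicate 2. The middle base of each lay in its coding exon. Next stood Htr5a with 1.31 and 1.24, and Htr4, a Gs-coupled receptor, with 1.39 and 0.748. The libraries were close for Htr5a and far apart for Htr4. Intermediate values belonged to Htr1b (1.07 and 0.851), the terminal autoreceptor, to Htr6 (1.07 and 0.948) and to Htr5b (0.806 and 0.741). Htr7, Gs-coupled like Htr4 and Htr6, gave 0.714 and 0.748. Below them lay Htr1f with 0.763 and 0.393 and Htr2a, the Gq/11-coupled cortical receptor, with 0.636 and 0.425. Both genes known elsewhere were at the bottom: Htr1d had 0.537 and 0.419, and Htr2b, known from heart valve and gut, had 0.360 and 0.367. Htr2b starts opposite Psmd1, a proteasome subunit gene, and the genes share that window, though each of its peaks had the Htr2b start as the nearest.

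Dopamine receptors had a promoter peak in both libraries at 3 of 5 genes, near the share of all protein-coding genes, and their mean values ran from 0 to 2.08. Drd1, the Gs-coupled receptor of striatal direct-pathway neurons, had 2.05 and 2.11, the highest promoter value of the 16 genes known elsewhere. Its peak was narrow, at chr13:54055641-54055840 in replicate 1 and chr13:54055621-54055840 in replicate 2, and no distal peak lay within the gene or 10 kb around it. Drd5, the Gs-coupled receptor classed as known in hippocampus, had 0.579 and 0.638. These 2 peaks of Drd5 did not overlap each other, although both lay in its untranslated region. Drd2, the Gi/o-coupled receptor of indirect-pathway neurons, had 0.424 and 0.432. Drd3 and Drd4, both Gi/o-coupled, had no promoter peak, no promoter footprint and no base at an FDR under 0.05 in their windows in either library. Drd3 nonetheless held an open site in its intron, 39.8 kb past its nearest annotated TSS. Its values were 1.46 at chr16:43801921-43802180 and 1.71 at chr16:43802121-43802280. Called peaks thus lay only at the start of Drd1 and only away from the start of Drd3. Beside Drd1, 6 of 8 markers of striatal projection neurons had promoter peaks in both libraries, not far from the 63.2% of all protein-coding genes. Isl1 (1.05) and Six3 (0.410) had one in replicate 1 alone. The summed value of the 8 was 10.2 and 7.22, and the part of such cells in the Drd1 value was not tested.

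The part of the Drd1 peak upstream of the annotated start is shown because it is the strongest promoter of the class known elsewhere. It covers chr13:54055706-54055840 (mm10, minus strand), and capitals mark the 32 bases that lay in footprints of both libraries. The longer footprint run holds the letters CAGAGGGCG, 1 mismatch from the CTCF motif CAGGGGGCG.
Drd1 promoter: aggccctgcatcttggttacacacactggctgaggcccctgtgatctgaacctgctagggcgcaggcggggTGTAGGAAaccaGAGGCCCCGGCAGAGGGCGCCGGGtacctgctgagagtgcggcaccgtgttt

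Muscarinic receptors had a promoter peak in both libraries at 3 of 5 genes, near the 63.2% of all protein-coding genes. Chrm1, the Gq/11-coupled receptor of pyramidal and granule cells, had 2.19 and 1.99, the highest mean of the class known in hippocampus. That peak ran over the first exon, at chr19:8663821-8664520 and chr19:8663941-8664520, and a separate peak of 1.61 and 1.48 lay just upstream. Chrm3, also Gq/11-coupled, had 1.36 and 1.26. Chrm2, the Gi/o-coupled receptor found on interneurons and cholinergic fibres, had 0.622 and 0.696. Chrm4, Gi/o-coupled, lacked a promoter peak in replicate 1 but showed one of 1.77 in the library labelled male replicate 2, at chr2:91927921-91928180 in its coding exon, 801 bp past the TSS. Chrm5, Gq/11-coupled and known from midbrain dopamine neurons, had none in either library, nor any base at an FDR under 0.05.

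The stretch of the shared Chrm1 promoter peak outside annotated untranslated exons is 63 bases long and lies in an intron, at chr19:8664458-8664520 (plus strand). No base of them lay in a footprint of both libraries, so the run has no capitals.
Chrm1 promoter: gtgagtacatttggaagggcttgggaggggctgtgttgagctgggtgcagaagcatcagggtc

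Nicotinic receptor genes, which encode channel subunits, had a promoter peak in both libraries at 4 of 6 genes, near the 63.2% of all protein-coding genes. Chrna7, the subunit of the homomeric receptor of hippocampal interneurons and pyramidal cells, had 1.35 and 2.09. Chrnb2, the common partner subunit of brain receptors, had 1.53 and 1.26, and Chrna4, with which it forms the main high-affinity receptor, had 0.714 and 0.741. Chrnb2 lay above the all-gene median in both libraries and Chrna4 below it. The other three, Chrna5, Chrna3 and Chrnb4, form a cluster on chromosome 9 and are known from habenula and autonomic ganglia. Chrna5 had 0.544 and 0.548, Chrna3 lacked a peak in replicate 1 but reached 0.483 in the library labelled male replicate 2, and Chrnb4 had none. Extended by 10 kb these neighbours share DNA, so that a peak of 1.37 and 1.91 in an intron of Chrna3 counted for Chrnb4 too.

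Adrenergic receptors had a promoter peak in both libraries at 8 of 8 genes, against 63.2% of all protein-coding genes. Their median promoter values were 1.49 and 1.28, above those of every other family apart from the single cannabinoid gene. Adrb1, the Gs-coupled receptor through which noradrenaline acts on hippocampal plasticity, had 2.41 and 1.82, the highest mean among all 46. Its window held 6 and 4 peaks over the promoter and the coding exon, and 17 and 18 footprints, and yet no distal peak lay within 10 kb. Adra2a, the Gi/o-coupled autoreceptor of noradrenergic neurons, had 2.42 and 1.5. Adra2b, its paralog known mainly from thalamus and the periphery, had 1.84 and 1.81, and Adra2c had 1.51 and 1.41. All 3 alpha-2 genes thus lay above the all-gene median in both libraries. Among the Gq/11-coupled alpha-1 genes, Adra1d, the hippocampal subtype, had 1.47 and 1.15, Adra1a had 1.10 and 0.722, and Adra1b had 1.08 and 0.973. Adrb3, the Gs-coupled receptor of fat, was lowest with 0.869 and 0.645, from peaks in its coding exon.

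The Adrb1 promoter is shown as the strongest of the mixed class, at chr19:56721591-56721890 (plus strand), with 29 bases in capitals for footprints of both libraries.
Adrb1 promoter: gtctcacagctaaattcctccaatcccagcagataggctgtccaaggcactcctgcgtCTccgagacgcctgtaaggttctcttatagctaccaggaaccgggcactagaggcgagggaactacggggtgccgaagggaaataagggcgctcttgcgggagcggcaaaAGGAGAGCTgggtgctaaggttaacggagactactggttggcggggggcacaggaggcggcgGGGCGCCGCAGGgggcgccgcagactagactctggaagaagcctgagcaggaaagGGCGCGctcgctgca

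Adenosine receptors differed by place. Adora1, the Gi/o-coupled receptor by which adenosine dampens glutamate release, had 1.73 and 1.52, with 7 and 4 peaks in its promoter windows. Adora2a, the Gs-coupled striatal receptor, had 0.848 and 0.973, and Adora2b, a Gs-coupled receptor found widely at low level, had 0.926 and 0.728. All 3 had a peak in both libraries, against 63.2% of all protein-coding genes, and Adora1 alone lay above the all-gene median.

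Cnr1, the Gi/o-coupled cannabinoid receptor of interneuron terminals, had 1.77 and 1.82. The opioid receptors lay low, all of them Gi/o-coupled: Oprl1, the nociceptin receptor, had 0.791 and 0.960, Oprd1, the delta receptor, 0.587 and 0.819, Oprm1, the mu receptor, 0.523 and 0.496, and Oprk1, the kappa receptor, 0.276 and 0.342. The highest opioid gene stood below the all-gene median in both libraries, and Oprk1 had the lowest mean of the 39 receptors with a peak in both libraries. The peaks of Oprd1 in replicates 1 and 2 did not overlap each other. Hrh3, the Gi/o-coupled histamine autoreceptor, had 1.05 and 1.20, and Hrh2, the Gs-coupled receptor of principal neurons, had 0.735 and 0.645. Hrh1, Gq/11-coupled, lacked a promoter peak in replicate 1 but reached 0.741 in the library labelled male replicate 2.

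The share of promoter-window bases at an FDR under 0.05 also differed by class. Its median was 52.3% and 51.5% for genes known in hippocampus, 22% and 24.4% for the mixed class, 13.6% and 10.2% for genes known elsewhere, and 14.0% and 12% over all genes. By the mean of the libraries, 10 of 12 genes known in hippocampus lay above the median of all 46 and 4 of 16 known elsewhere. The classes still overlapped. Htr1b, of the mixed class, was the most open receptor window with 79.8% and 86.5%, while Hrh2, known in hippocampus, had 11.7% and 8.42% and Drd5 had 17.9% and 6.0%. Adora2b was the most open of those known elsewhere with 41.8% and 51.5%. The libraries disagreed widely for a few genes of the hippocampal class: Adra1d had 46.2% and 100%, Chrm1 96.0% and 45.3%, and Adora1 87.8% and 48.0%. At an FDR of at most 0.001 the class medians of the mean were 39.5% and, for genes known elsewhere, 0.595%.

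**Figure D2:**
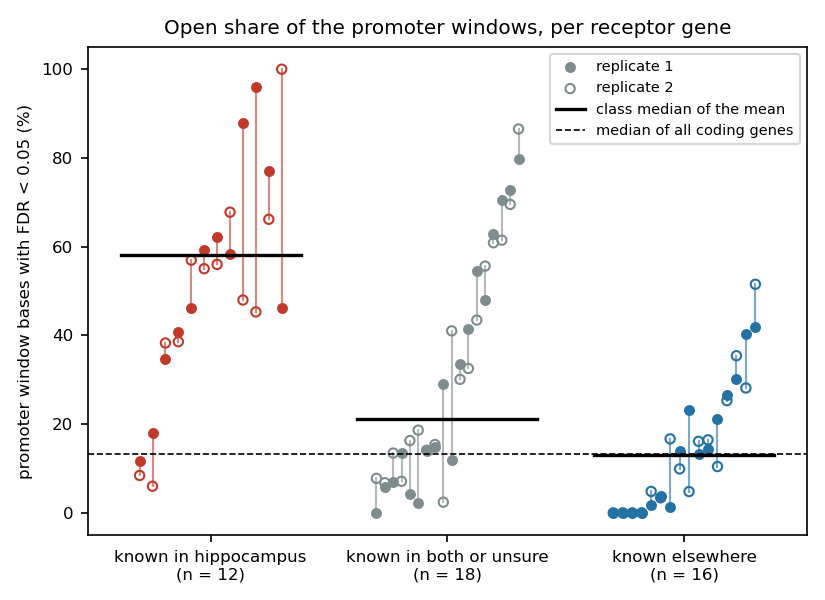
Share of the promoter-window bases at an FDR under 0.05 (y axis, percent) for each receptor gene, filled circles for replicate 1 and open circles for replicate 2, sorted within the 3 classes of known site. Thick lines are class medians of the mean of the libraries (58.1%, 21.1% and 13.0%) and the dashed line is the median of all protein-coding genes (13.3%), near the class known elsewhere.

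Promoter footprints gave the same order. A footprint lay in the promoter window in both libraries at 12 of 12 genes known in hippocampus, 14 of 18 of the mixed class and 10 of 16 known elsewhere, 36 of 46 in all, against 61.6% of all genes. Htr1b and Adrb1 had the most, with 17 and 18 footprints each, followed by Adora1 with 15 and 10 and by Htr4 and Adra2a with 13 and 12 each. Htr1f, Htr2b and Oprl1 had footprints in replicate 1 alone, in spite of promoter peaks in both libraries. Single footprints recurred seldom: of 248 receptor promoter footprints in replicate 1, 55 (22.2%) overlapped one of replicate 2, and of 230 in replicate 2, 59 (25.7%) overlapped one of replicate 1.

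Distal peaks, those that overlap no TSS window of a protein-coding gene, were counted in the gene and 10 kb at each end. Summed over the 12 genes known in hippocampus there were 63 and 30, over the 18 of the mixed class 41 and 46, and over the 16 known elsewhere 14 and 12. The first of these sums dropped most between libraries, and 20 of the 63 belonged to Adora1. Among the 16 genes known elsewhere, 8 and 10 had no distal peak, against 9247 and 9740 of all 21755 protein-coding genes. Each count was ranked among the 200 protein-coding genes of most similar length, and the mean rank of the libraries, in percent, had a median of 46.9 in the hippocampal class, 67.4 in the mixed class and 32.2 among genes known elsewhere, and 45.6 over all genes. Within the libraries these medians were 61.1 and 47.8, 69.1 and 74.6, and 39.3 and 31.0. The medians over all genes were 44.5 and 42.0 within the libraries. How far the hippocampal class stood from all genes depended on the setting. It was 46 against 45.8 among the 100 genes nearest in length, 55.2 against 44.5 in the gene body alone, 52.6 against 39.5 on the shorter peak list, 53.6 against 37.4 for peaks found in both libraries and 68.1 against 50.5 with 50 kb at each end. A mean percentile above 75 was reached by 4 of 12, 8 of 18 and 0 of 16, or 12 of 46 in all, near the 21.9% of all genes. The class ranges overlapped, from 16.1 to 96.8 for genes known in hippocampus and from 18.8 to 70.1 for genes known elsewhere.

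**Figure D3:**
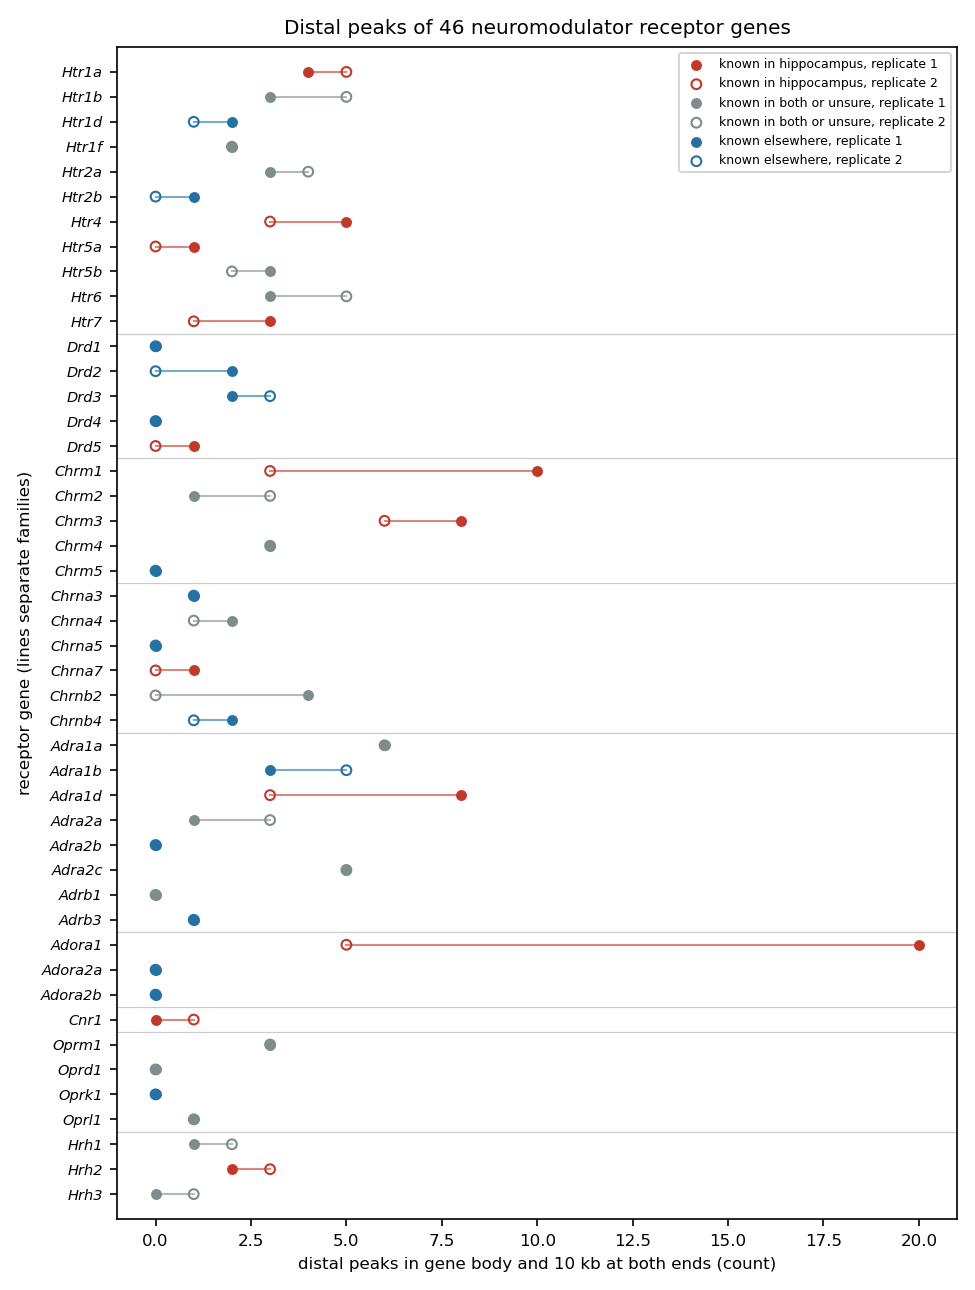
Number of distal peaks in each receptor gene and 10 kb at both ends (x axis, count), filled circles for replicate 1 and open circles for replicate 2, a single filled point where they are equal. Adora1 stands alone with 20 in replicate 1 and 5 in replicate 2, and 10 genes, Drd1 and Adrb1 among them, have 0 in both.

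Adora1 had the most distal peaks, 20 and 5, with 62 and 17 separate regions at an FDR under 0.05. Of the 20 only 3 overlapped a peak of the other library, and those 3 were the strongest, with values from 1.38 to 2.23, while the other 17 ran from 0.276 to 1.05. Chrm1 had 10 and 3, of which 4 and 3 were shared, and Adra1d 8 and 3, of which 2 and 1 were shared. For these genes most of the difference between libraries lay in peaks of replicate 1 without a partner. Chrm3, the longest receptor gene at 485 kb, had 8 and 6, all in introns, and its percentile was only 40.0 and 35.0. Adra1a had 6 and 6, Adra2c 5 and 5, Htr1a 4 and 5, and Adra1b, known mainly from thalamus and cortex, 3 and 5. Of those of Htr1a and of Adra1a, 4 and 5 were shared. The highest mean percentiles belonged to Adra2c (96.5 and 98.8), Adora1 (99.0 and 94.5), Htr1a (96.5 and 96.5), Chrm4 (94.8 and 96.5) and Htr1b (92.8 and 97.3). The lowest belonged to Chrna7 (23.8 and 8.50), Chrna5 (18.3 and 19.3), Oprm1 (18.8 and 21.8), Oprd1 (19.5 and 21.3) and Oprk1 (21.5 and 20.8). In replicate 1, the Adra2c peaks chr5:35279781-35280000 and chr5:35279981-35280540 lay inside chr5:35279541-35280820, and each was counted. The Adra2c peaks of replicate 2 did not overlap each other. That longest Adra2c peak and a distal peak of Htr1a in replicate 1 also overlapped promoter peaks of their genes.

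Over the classes, 23 of 63 distal peaks of the hippocampal class in replicate 1 (36.5%) overlapped a peak of replicate 2, and 24 of 30 in replicate 2 (80.0%) one of replicate 1. For the mixed class it was 24 of 41 and 26 of 46, and for genes known elsewhere 9 of 14 and 9 of 12. Distal peaks without a partner were weaker, with a median value of 0.413 and 0.483 against 0.820 and 0.680 for those with one. Most distal peaks lay in introns, 64 of 118 and 50 of 88.

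**Figure D4:**
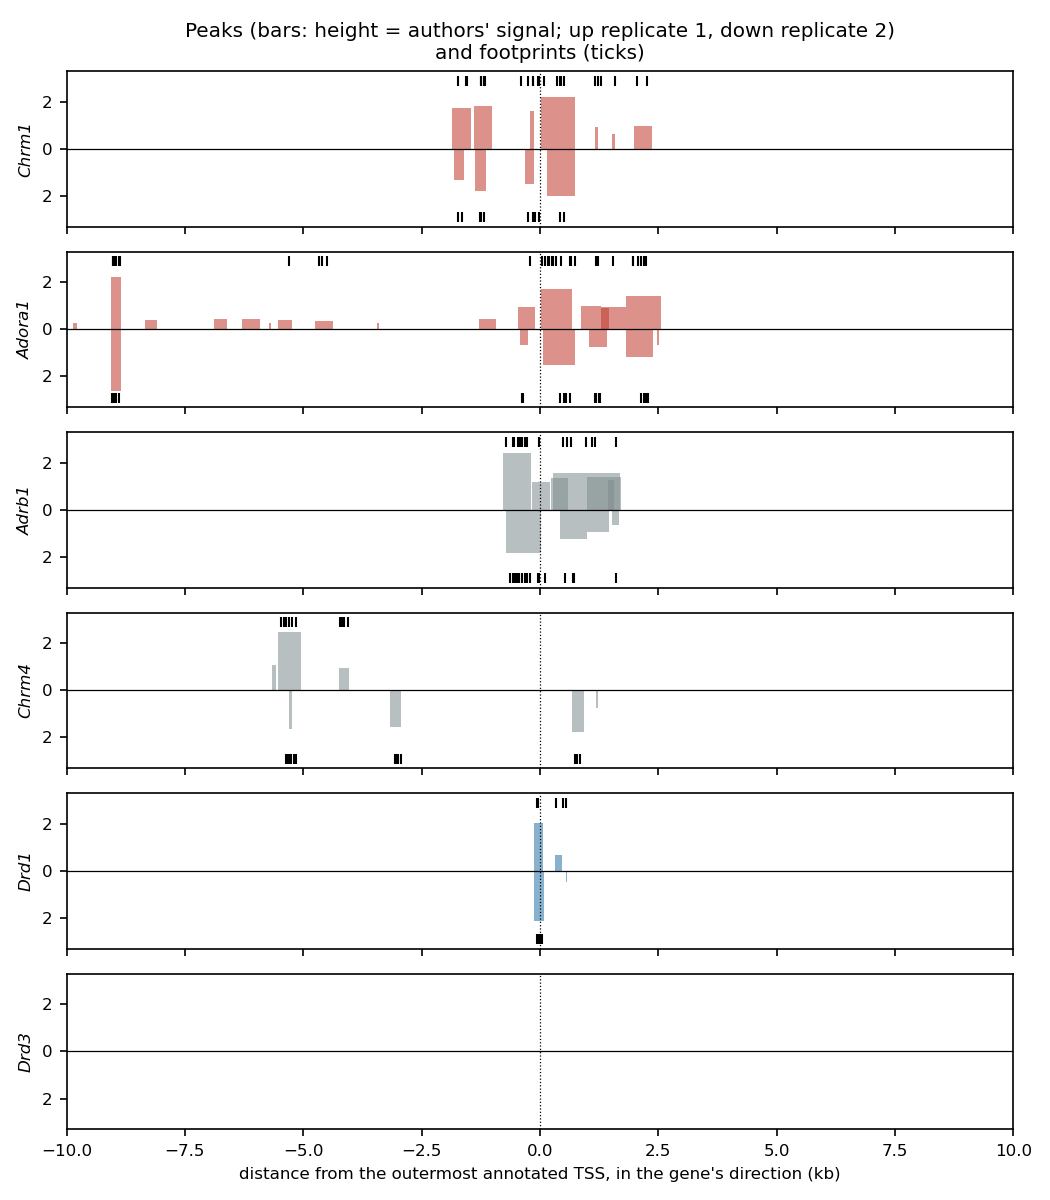
Peaks (bars, height in the authors' signal, replicate 1 upward and replicate 2 downward) and footprints (ticks) within 10 kb of the outermost annotated TSS of 6 receptor genes chosen after their values were seen, in the direction of the gene (x axis, kb). Chrm1, Adora1 and Adrb1 show several peaks around the start, Chrm4 a strong pair at -5.29 kb, Drd1 a narrow pair at the start, and Drd3 nothing in this range.

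The 6 strongest distal peaks found in both libraries belonged to 5 of the receptor loci. The first was at Adora1, at -8.96 kb from its outermost TSS and between genes, with the same borders in both libraries, chr1:134244281-134244500, and values of 2.23 and 2.60, above those of the Adora1 promoter. The second lay in the intron of Htr2a, 2.62 kb past the TSS, with 2.13 and 2.17, more than 3 times the value of the Htr2a promoter in each library. At Chrm4 the peak at -5.29 kb had 2.47 and 1.66. The fourth, upstream of Chrm1 in an intron of the noncoding gene AC025794.1, had 1.84 and 1.78. An intron of Chrna3 held the fifth, with 1.37 and 1.91. The sixth, 37.8 kb past the nearest Adora1 TSS in an intron of the neighbouring muscle gene Mybph, had 1.74 and 1.5. At Adora1, Htr2a, Chrm4 and Chrna3 the strongest site found in both libraries was thus distal.

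The stretches of these peaks common to both libraries are shown on the strand of the receptor gene (mm10 reference letters, not those of the cross), with capitals for bases in footprints of both libraries. In the order of the lines they cover chr1:134244281-134244500, chr14:74643461-74643600, chr2:91921941-91922020, chr19:8662421-8662640, chr9:55024021-55024200 and chr1:134196541-134196780.
Adora1 upstream: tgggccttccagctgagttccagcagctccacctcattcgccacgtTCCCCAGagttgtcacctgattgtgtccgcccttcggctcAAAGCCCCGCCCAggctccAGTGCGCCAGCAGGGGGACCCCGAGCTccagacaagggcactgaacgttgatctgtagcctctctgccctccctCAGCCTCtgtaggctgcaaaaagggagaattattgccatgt
Htr2a intron: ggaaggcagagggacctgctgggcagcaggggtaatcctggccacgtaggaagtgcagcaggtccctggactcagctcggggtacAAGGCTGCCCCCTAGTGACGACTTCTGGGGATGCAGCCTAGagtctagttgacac
Chrm4 upstream: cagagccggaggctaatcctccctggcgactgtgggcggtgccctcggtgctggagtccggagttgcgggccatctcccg
Chrm1 upstream: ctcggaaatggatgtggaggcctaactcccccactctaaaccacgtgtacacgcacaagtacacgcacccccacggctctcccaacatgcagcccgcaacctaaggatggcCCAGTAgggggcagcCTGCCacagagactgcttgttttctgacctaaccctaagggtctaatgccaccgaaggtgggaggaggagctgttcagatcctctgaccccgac
Chrna3 intron: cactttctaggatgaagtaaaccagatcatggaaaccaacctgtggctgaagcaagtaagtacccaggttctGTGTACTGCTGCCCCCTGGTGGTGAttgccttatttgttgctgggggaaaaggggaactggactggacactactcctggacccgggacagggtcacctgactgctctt
Adora1 downstream: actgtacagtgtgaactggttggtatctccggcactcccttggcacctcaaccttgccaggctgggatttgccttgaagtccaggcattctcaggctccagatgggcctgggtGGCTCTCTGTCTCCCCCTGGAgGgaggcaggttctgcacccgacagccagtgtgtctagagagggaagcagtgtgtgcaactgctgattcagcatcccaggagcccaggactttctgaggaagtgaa

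On inspection, 5 of the 6 hold AGGGGG on one strand or the other, all but Chrm4, and in 4 of them, all but Chrm1, it lies in footprints of both libraries. These letters form part of the CTCF motif CAGGGGGCG and were picked after the sequences had been seen, so the count is a description. They occur in 33.6% of the 3310 shared distal peaks of the genome with a mean value of at least 1.62, in footprints of both libraries in 23.1%, and in 17.4% of all 32971 shared distal peaks. Over the 55 shared distal peaks of the receptors, 13 (23.6%) hold them. The CTCF motif itself, with at most 1 mismatch, was found in 2 of the 6, against 36.3% of the 3310 peaks at least as strong, and in 8 of the 55 (14.5%), against 12.8% of all shared distal peaks. CTCF is a zinc finger protein that bounds chromatin loops, and a match of letters is not evidence that it binds there.

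In the promoter windows, 12 motifs were searched on both strands. Of these, RE1, the element bound by REST, a repressor of neuronal genes in other cells, was searched as TTCAGCACC and GGACAGCGC with 2 bases between them and at most 3 mismatches of 18. It was found in the windows of 8 of 46 receptor genes (17.4%) and of 283 of 21755 genes (1.30%): Chrnb2, Htr1a, Hrh3, Drd2, Htr5a, Oprm1, Adora2b and Drd3. The classes did not stand apart, with 2 of 12 known in hippocampus, 3 of 18 mixed and 3 of 16 known elsewhere. Chrnb2 had the full sequence with 0 mismatches, 143 bp past its TSS in the untranslated first exon, inside footprints of both libraries, the one receptor match of which this held. Htr1a had a match with 1 mismatch at -843 bp from its TSS and another with 3 mismatches at 904 bp. Hrh3 and Drd2 had 2 mismatches, and the rest had 3. The match of Oprm1 lay in its first coding exon, within a footprint of replicate 2 alone. Drd3 had its match at -91 bp from a TSS that lay in no peak. The shared distal peak of Chrm4 also held a match with 3 mismatches. That was 1 of the 55 shared distal peaks of the receptors (1.82%), against 0.137% of all shared distal peaks. Among the 3310 with a mean value of at least 1.62 the share was 0.242%. A single match does not measure a difference.

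The 5 matches that differ least, or that lie in a footprint, are shown with 5 flanking bases in small letters and the matched element in capitals, on the strand of the match. Their coordinates are, in order, chr3:89764455-89764474, chr13:105442786-105442805, chr2:180104574-180104593, chr9:49341197-49341216 and chr10:6788866-6788885.
Chrnb2 RE1 match: gcggcTTCAGCACCACGGACAGCGCtccgt
Htr1a RE1 match: ttgggTTCAGCACCCGGGACAGCTCtgtgt
Hrh3 RE1 match: gcgcgGGCAGCACCACGGACAGCGCcgcgt
Drd2 RE1 match: cgggaTTCAGCACCAAGGACAGCAGaaagc
Oprm1 RE1 match: aagcaTTCAGAACCATGGACAGCAGcgccg

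Among the other motifs, the GC box GGGCGG stood in the windows of 84.8% of receptors and 72.7% of all genes, but in a footprint of both libraries at 6.52% and 17.6%. NRF1 (GCGCATGCG, at most 1 mismatch), a regulator of growth and mitochondrial genes, was found in 8.70% against 34.3%. AP-1 (TGANTCA) was found in 39.1% against 61.5% and MEF2 (TAAAAATA) in 23.9% against 39.7%. YY1 (AAGATGGCG, at most 1 mismatch) stood in 39.1% against 54.4%. More frequent among receptors were CTCF, with 73.9% against 59.98%, and EGR (GCGTGGGCG, at most 1 mismatch), with 63.0% against 49.3%. In footprints of both libraries, though, CTCF stood at 8.70% of receptors and 8.70% of all genes, and EGR at 0 of 46 receptors against 6.38%. The E-boxes CAGATG (E-box 1 in the plot of motifs) and CAGCTG (E-box 2) were near the background, with 91.3% against 87.8% and 82.6% against 80.2%. CRE (TGACGTCA), the element of the cyclic AMP response, stood in the window of Hrh1 alone, 2.17% against 6.16%, and NFI, TTGGC and GCCAA with 5 bases between, in 1 window, 2.17% against 0.336%. Some of these motifs overlap each other in letters, as GC box and EGR do, and windows differ in number between genes.

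**Figure D5:**
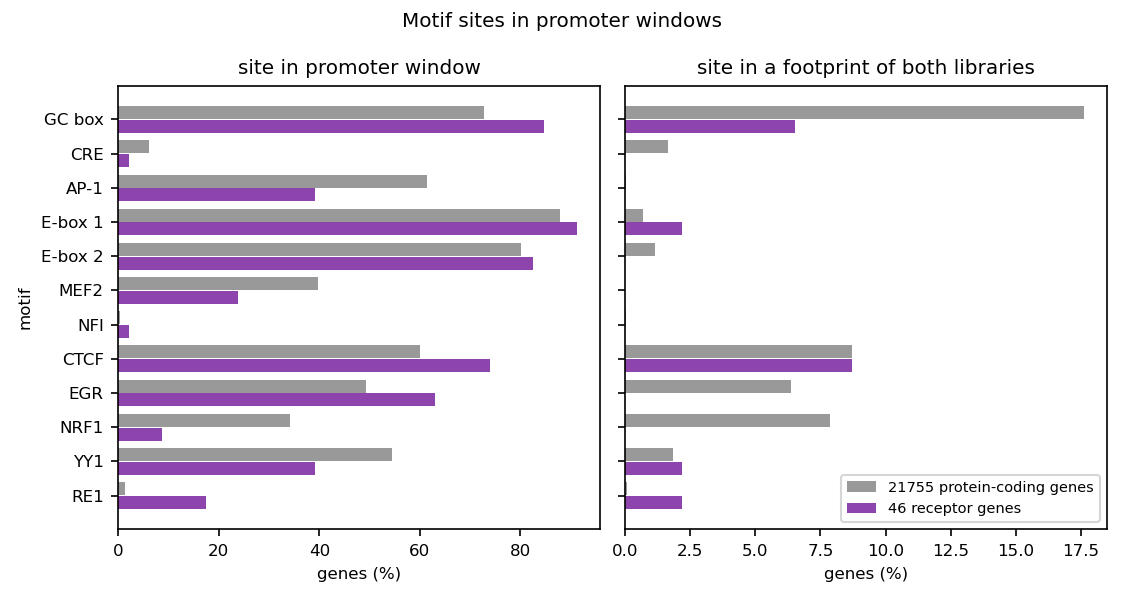
Share of genes (x axis, percent) with a motif match in the promoter window, left, and with a match inside footprints of both libraries, right, for the 46 receptor genes and all 21755 protein-coding genes. RE1 stands in 17.4% of receptor windows against 1.30%, and the GC box in footprints of both libraries at 6.52% against 17.6%.

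Promoter sequence composition was set beside these values. The ratio of observed to expected CpG in the promoter windows had a median of 0.467 over receptors and 0.364 over all genes, and of 0.473, 0.540 and 0.432 in the hippocampal, mixed and elsewhere classes. All genes were split by this ratio into 3 groups of like size. In the highest group, 22 of 24 receptors and 92.4% of all genes had a promoter peak in both libraries, in the middle group 12 of 16 and 81.4%, and in the lowest 5 of 6 and 15.7%. The median values of those with a peak were 0.985, 0.990 and 0.510 for receptors and 2.37, 2.13 and 1.17 for all genes. Within each group the receptors thus had lower peaks than all genes, while their share with a peak was near that of all genes in the upper and middle groups and above it in the lowest, which holds only 6 receptors.

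By signalling route, a promoter peak stood in both libraries at 18 of 21 genes of Gi/o-coupled receptors, 7 of 9 of Gq/11-coupled, 10 of 10 of Gs-coupled and 4 of 6 of channel subunits. The share over all protein-coding genes was 63.2%, and that of the channel subunits was near it. Median promoter values were 0.791 and 0.851 for Gi/o, 1.08 and 0.741 for Gq/11, 0.897 and 0.748 for Gs and 0.629 and 0.645 for channels. The order of the routes changed between libraries.

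The partners of the receptors inside the cell had higher promoter peaks than the receptors. Of 37 genes for G protein subunits, adenylyl cyclases, phospholipases, protein kinase A, arrestins, receptor kinases, RGS proteins and potassium channels, 36 had a promoter peak in both libraries, with median promoter values of 1.93 and 1.75. By the open share of the promoter window they did not stand above the receptors in both libraries, with medians of 23.7% and 22.8% against 24.9% and 21.97%. The highest were Gnaz, a Gi/o-type alpha subunit (3.99 and 4.04), Arrb2, an arrestin (3.35 and 4.13), and Gnb2, a beta subunit (3.24 and 3.95). The lowest were Grk3, a receptor kinase (0.926 and 1.01), Gnb4, a beta subunit (0.827 and 0.761), and Kcnj9, a potassium channel subunit with 0.629 in replicate 1 and no peak in replicate 2. Of 35 genes that make, pack, take up or break down the modulators, 25 (71.4%) had one in both, against 63.2% of all genes. Their medians were 0.721 and 0.728. Highest were Napepld (3.53 and 4.36), which makes anandamide, Slc18a1, a vesicular monoamine transporter (3.19 and 4.31), and Dagla, which makes 2-arachidonoylglycerol (3.43 and 4.04). No peak in either library was found at 6 of the 35, against 7176 of all 21755 genes. Dbh, Tph2, Slc6a4, Slc6a3 and Ddc were among the 25 with a peak in both. The 6 without one were Th, Chat, Slc18a2, Slc18a3, Pomc and Pnoc. Th makes L-DOPA, the precursor of dopamine and noradrenaline, and Chat makes acetylcholine, Slc18a2 and Slc18a3 fill vesicles with monoamines and acetylcholine, and Pomc and Pnoc encode opioid-type peptide precursors.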

How the data were processed

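DNase-seq files of 2 libraries of 1 group were used. Peaks were deposited per library as narrow peaks, in a longer and a shorter list, with the authors' signal per peak, whose scaling and number of cuts are not stated. The deposited FDR runs give the authors' FDR (a p-value type column) for bases under 0.05, checked on the files, and footprints are bare intervals. The assembly is mm10 per the labels, and the lists were made from each library's own reads per the file headers and names. For the aligner, the callers and their versions nothing is given in the sources used here. Of the deposited peaks, 4430 in replicate 1 and 2722 in replicate 2 overlapped the peak before them, and each was counted as listed.

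Genes and TSS came from GENCODE M21 and sequence from GRCm38, the same build as mm10. All 161 annotated transcripts of the receptor genes matched the genome exactly. Intervals were counted with Python 3.11.15 (numpy 2.4.6, pandas 2.3.3; figures with matplotlib 3.10.9) when they overlapped by at least 1 bp, and the counting was tested on simulated data. With 1 group of 2 libraries no test was made, and counts and medians stand beside those of all 21755 protein-coding genes. The receptors, their classes and the lists were chosen with earlier results of these data known. Named with values from both libraries were the highest and lowest promoter values of each family, the most distal peaks, the highest and lowest distal ranks, genes with a peak in 1 library, genes known elsewhere with a peak in both, and the 6 strongest shared distal peaks; other values were added for completeness. The letters AGGGGG and the genes in the map of peaks were chosen after the data were seen. Alternatives were another peak list, window, flank, FDR, TSS set, class assignment and number of genes of like length, and leaving out each library.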

Additional observations from a re-analysis of the deposited data

How the results depend on the processing

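Genes known in hippocampus stood above genes known elsewhere under every setting run: 10 of 10 for promoter peaks, 8 of 8 for promoter footprints, 8 of 8 for promoter bases in FDR runs and 11 of 11 for the distal percentile. All settings reuse the same libraries and nearly the same genes, so these counts are not independent support for the class difference. The sizes changed. On the shorter peak list 25.0% of genes known elsewhere and 52.2% of all receptors had a promoter peak in both libraries, and the median distal percentile of all receptors was 49.0. Leaving out one library, the median distal percentile ran from 47.8 to 61.1 for genes known in hippocampus, from 31.0 to 39.3 for genes known elsewhere and from 52.5 to 54.9 for all receptors, and the median open share of the promoter windows from 51.5% to 52.3%, from 10.2% to 13.6% and from 21.97% to 24.9%. With the mixed class joined to the hippocampal class, that class had a distal percentile of 62.1 and an open share of 38.3%, and with Drd1 and Drd2 moved to the mixed class the open share of genes known elsewhere was 10.5%. The open share followed the window by construction: 27.2%, 6.66% and 10.9% (hippocampal, elsewhere, all receptors) at 2.5 kb, and 66.5%, 16.7% and 30.4% at 0.5 kb. At an FDR of at most 0.001 it was 39.5%, 0.595% and 8.52%. The distal percentile was 44.4 for genes known elsewhere and 47.7 for all receptors in the gene body alone, and 68.1 in the hippocampal class and 55.9 for all receptors with 50 kb at each end. Restricted to peaks found in both libraries, an alternative chosen after seeing the data like the merging of overlapping peaks and the nearest-TSS rule, it was 42.9 for all receptors, below its value of 50.7. Other causes of these shifts were not tested. No paired analysis was possible because there was only 1 group. Depth is unknown, so a missing peak does not show closed DNA. Class assignment rests on general knowledge and was made with earlier results of these data known. The 12 to 18 genes per class, some of them neighbours that share peaks, limit every median.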

Other observations

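The strongest promoter peak of a receptor gene lay mostly within an annotated gene, either the receptor gene or another. Its middle base was in an untranslated exon at 17 of 39 genes in replicate 1 and at 18 of 42 in replicate 2. It was in an intron at 9 and 10, in a coding exon at 5 and 4, and between genes at 6 and 10. In replicate 1 it was in an exon of a noncoding transcript at 2. At Chrm3 and Adra1d the intron was that of an antisense gene, with the peak centre upstream of the receptor TSS. Htr1a, Adrb3, Oprm1 and Chrm4 are examples of the coding exon. Distal peaks of the receptors lay in coding exons at 18 of 118 and 14 of 88. Adra2c had such peaks along its coding exon in both libraries, with values of 1.29 and 1.12 at chr5:35279541-35280820 and chr5:35279781-35280200.

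Some shared distal peaks had identical borders in both libraries. Among them were the site of Adora1 at -8.96 kb, the site of Htr1b at chr9:81627021-81627200, with values of 0.968 and 1.84, and of Adra1b at chr11:43767061-43767300 (1.56 and 1.43) and at chr11:43783881-43784040 (1.38 and 1.71). The sites of Htr1b and Adra1b were chosen after their values were seen. The CTCF letters were found in each of these last 3, within footprints of both libraries at Htr1b and at the second site of Adra1b. Over all 55 shared distal peaks of the receptors they were found in 8 (14.5%), near the 12.8% of all shared distal peaks.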
